A study of Sus scrofa with 8 samples.

Results

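The genes described here carry out antigen presentation by major histocompatibility complex (MHC) class II molecules, which in pigs belong to the swine leukocyte antigen (SLA) family. Of 10 genes listed, 9 had at least 1 probe on the array whose RefSeq accession led to the gene symbol: SLA-DRA, SLA-DRB1, SLA-DQA1, SLA-DQB1, SLA-DMA, SLA-DMB, SLA-DOA, SLA-DOB and CD74. CIITA, the coactivator that switches the class II genes on, had none by this rule and was not analysed here. The 9 genes were 9 of 3216 with a symbol. They had 32 probes in all, and the brightest probe of each gene over all arrays stood for it.

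Class II molecules are pairs of an alpha and a beta chain that hold peptides from ingested proteins on the cell surface, where CD4+ T cells read them. Newly made pairs travel with the invariant chain CD74, which blocks the groove until it is broken down in endosomes. SLA-DM then exchanges its last fragment for peptides, and SLA-DO restrains SLA-DM. Dendritic cells, macrophages and B cells carry class II molecules throughout life, and the absorptive epithelium of the small intestine can also make them.

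The jejunum, the long middle part of the small intestine, was taken from Duroc × Landrace piglets at 25 days of age. A group of 4 piglets had been weaned at 21 days, put in nursery pens with free access to water and to a basal diet (20.50% crude protein, digestible energy 14.48 MJ/kg). The other 4 had stayed with the sow. Each of 4 litters gave 1 piglet per group, and each array held the RNA of 1 piglet, from a washed segment about 2 cm long that contained epithelium, immune cells, stroma and muscle. In such bulk tissue, fewer cells of a type and less RNA per cell cannot be told apart.

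Levels below are log2 processed intensities minus the 75th percentile of the same array, so 0 marks that percentile and a step of 1 is a doubling in signal. Suckling replicate 1 had the lowest such percentile, 245.0 intensity units, while the remaining 7 arrays had 317 to 395, and 67.6% to 71.0% of probes per array were well above background. The 4 weaned arrays lay on 1 slide and the 4 suckling arrays on another, and for every value below the slide and the group cannot be told apart. In each group the replicate number was also the position of the array on its slide. Suckling replicate 1 and weaned replicate 1, at position 1, had the lowest 75th percentiles, 245.0 and 317. The correlation of each array with the array most like it, a description over probes that are not independent, was lowest for suckling replicate 1 (r = 0.978, with weaned replicate 1) and 0.983 to 0.987 for the other 7. Weaned replicate 3 and suckling replicate 3 were also most like each other. The class II results are given with and without suckling replicate 1. All 32 class II probes passed the filter on dim probes, and none of the 9 chosen probes was below background on any array. Markers of the absorptive epithelium of the small intestine were present at high levels, with FABP1, a fatty acid binding protein, at 8.78 ± 0.21 in weaned and 8.77 ± 0.58 in suckling piglets and APOA4, an apolipoprotein, at 8.16 ± 0.63 in weaned and 8.72 ± 1.01 in suckling piglets (SD, n = 4 each). These markers do not tell the jejunum from the rest of the small intestine.

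The comparison asked whether class II transcripts differed in the jejunum 4 days after weaning. Litter was not a term in the fit, because no label ties an array to a litter. None of the 9 genes passed the threshold of a Benjamini-Hochberg adjusted p under 0.05 in the limma fit over 30554 probes, and none had an unadjusted p under 0.05. Of all tested probes, 0.177% passed, and 1.82% passed without suckling replicate 1, where again no class II gene did. The mean was higher in weaned piglets for 7 genes and lower for 2, against 54.9% of all probes higher in weaned piglets. The median log2 difference over the 9 genes, weaned minus suckling, was 0.19, against 0.04 over all tested probes. Without suckling replicate 1, 4 genes had a higher and 5 a lower mean in weaned piglets, where 55.0% of all probes were higher, and the median over the 9 genes was -0.08, against 0.05 over all probes. The groups overlapped for all 9 genes with and without that array, while 7.76% of all probes with it and 20.5% without it had groups that did not overlap. The adjusted p-values by limma ran from 0.664 to 0.977 with 8 arrays and from 0.435 to 1.000 with 7. The number of probes past the threshold was 54 with 8 arrays and 553 of 30346 without suckling replicate 1. It was 40 without suckling replicate 4, and between 9 and 25 without suckling replicate 2, suckling replicate 3 or any single weaned array.

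**Figure D1:**
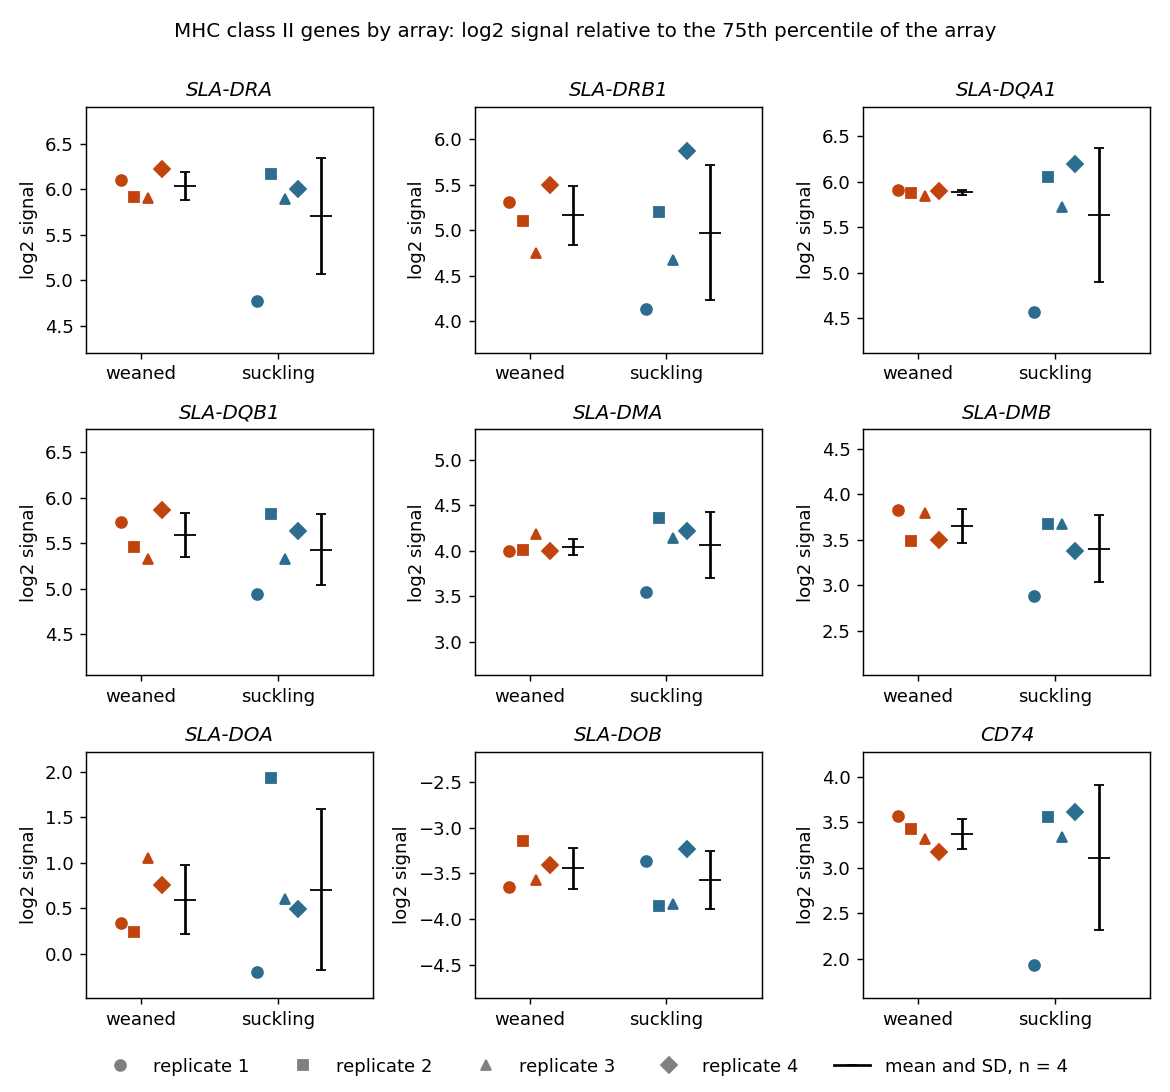
Levels of the 9 class II genes on each array, as log2 signal relative to the 75th percentile of the array, with weaned arrays on the left and suckling arrays on the right of each panel; marker shape gives the replicate number and bars give the mean and SD (n = 4). Every panel spans the same range of log2 units. Suckling replicate 1 (circle) is the lowest of the 8 arrays in every panel except that of SLA-DOB.

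SLA-DRA encodes the alpha chain of the DR molecule, which varies little between animals. Its level was 6.10, 5.91, 5.91 and 6.22 in weaned replicates 1 to 4, against 4.77, 6.16, 5.89 and 6.0 in suckling replicates 1 to 4. All weaned arrays and 3 suckling arrays lay within a narrow band, and suckling replicate 1 lay more than 1 log2 unit below it. The difference was 0.33 (SE 0.29, limma adjusted p = 0.685), with a 95% interval from -0.33 to 0.99. With that array left out it was 0.02 (SE 0.15, limma adjusted p = 0.960), and the interval from -0.33 to 0.36 corresponds to a fold between 0.798 and 1.28.

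SLA-DRB1, the partner of SLA-DRA and the polymorphic chain of the DR molecule, spread more widely. Weaned replicates 1 to 4 had 5.31, 5.10, 4.75 and 5.50, against 4.14, 5.20, 4.68 and 5.87 in suckling replicates 1 to 4. The highest and the lowest of the 8 values were both in the suckling group. The difference was 0.19 (SE 0.35, limma adjusted p = 0.856), and -0.08 without suckling replicate 1 (SE 0.30, limma adjusted p = 0.896). Suckling replicate 4 was the highest of all arrays and suckling replicate 1 the lowest on each of the 4 probes of this gene, which share 1 accession. On the probe A_72_P626735, for example, the weaned arrays had 3.52 to 4.05, against 4.73 in suckling replicate 4 and 2.77 in suckling replicate 3.

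The DQ molecule pairs SLA-DQA1 with SLA-DQB1. SLA-DQA1 had 5.91, 5.88, 5.84 and 5.90 in weaned replicates 1 to 4, against 4.57, 6.05, 5.73 and 6.20 in suckling replicates 1 to 4. Its weaned values had an SD of 0.03, and the suckling values lay on both sides of them. The difference was 0.25 (SE 0.32, limma adjusted p = 0.795), with an interval from -0.48 to 0.98. With suckling replicate 1 left out it was -0.11 (SE 0.15, limma adjusted p = 0.715), a fold of 0.928 with an interval from 0.728 to 1.18.

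SLA-DQB1 had 5.73, 5.46, 5.33 and 5.86 in weaned replicates 1 to 4, against 4.94, 5.82, 5.33 and 5.63 in suckling replicates 1 to 4. Apart from suckling replicate 1 the groups covered nearly the same range. The difference was 0.16 (SE 0.22, limma adjusted p = 0.800). Without suckling replicate 1 the means were 5.60 in weaned and 5.60 in suckling piglets, and the 95% interval of the difference ran from -0.44 to 0.44. In the RefSeq gene order the pseudogenes SLA-DRB4, SLA-DRB5, SLA-DQB2 and SLA-DYB lie between SLA-DRA and SLA-DOB, together with a further gene that carries the synonym SLA-DRB. How much RNA of such copies, or of different alleles, the DRB1 and DQB1 probes picked up was not tested, so these 2 genes are uncertain.

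CD74, the invariant chain, had the widest gap between suckling replicate 1 and the rest. It had 3.57, 3.43, 3.32 and 3.17 in weaned replicates 1 to 4, against 1.93, 3.56, 3.34 and 3.62 in suckling replicates 1 to 4. All arrays except suckling replicate 1 were within a span that the weaned group alone nearly filled. The unscaled intensity of its probe was 3460 to 4170 in the weaned arrays, against 935 in suckling replicate 1 and 4010 to 4630 in the other 3 suckling arrays. The difference was 0.26 (SE 0.35, limma adjusted p = 0.805), and its interval covered folds from 0.687 to 2.08. Without suckling replicate 1 the difference was -0.14 (SE 0.15, limma adjusted p = 0.636), with a fold between 0.711 and 1.16.

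Of the endosomal editors, SLA-DMA, the alpha chain of SLA-DM, had 4.00, 4.01, 4.18 and 3.99 in weaned replicates 1 to 4, against 3.55, 4.36, 4.14 and 4.22 in suckling replicates 1 to 4. The weaned arrays sat close together, with weaned replicate 3 slightly above the other three. The difference was -0.02 (SE 0.19, limma adjusted p = 0.977), and -0.19 without suckling replicate 1 (SE 0.14, limma adjusted p = 0.435), the smallest adjusted p of the 9 genes in that fit. SLA-DMB, the beta chain, had 3.82, 3.49, 3.80 and 3.49 in weaned replicates 1 to 4, against 2.89, 3.67, 3.67 and 3.38 in suckling replicates 1 to 4. Its difference of 0.25 (SE 0.21, limma adjusted p = 0.664) became 0.08 without suckling replicate 1 (SE 0.16, limma adjusted p = 0.817).

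SLA-DOA, the alpha chain of the SLA-DM inhibitor, was the most variable of the 9 genes. It had 0.34, 0.24, 1.05 and 0.76 in weaned replicates 1 to 4, against -0.20, 1.93, 0.61 and 0.49 in suckling replicates 1 to 4. Suckling replicate 2 was the highest array and suckling replicate 1 the lowest, and both probes of the gene gave this order. The difference was -0.11 (SE 0.41, limma adjusted p = 0.936), and -0.41 without suckling replicate 1 (SE 0.37, limma adjusted p = 0.549), with a 95% interval from -1.26 to 0.44. Without suckling replicate 2 it turned to 0.30.

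SLA-DOB, the beta chain of the same inhibitor and a gene mostly of B cells, lay far down the array's range. It had -3.65, -3.14, -3.58 and -3.41 in weaned replicates 1 to 4, against -3.36, -3.85, -3.84 and -3.23 in suckling replicates 1 to 4. Suckling replicate 1 was not low for this gene: it ranked 6 of 8 when arrays were counted from the lowest. The difference was 0.13 (SE 0.20, limma adjusted p = 0.83), and 0.20 without suckling replicate 1 (SE 0.21, limma adjusted p = 0.613). Unscaled intensities of this probe were 25.3 to 44 in weaned and 23.8 to 36.3 in suckling arrays, so its values had the least signal over background among the class II genes.

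**Figure D2:**
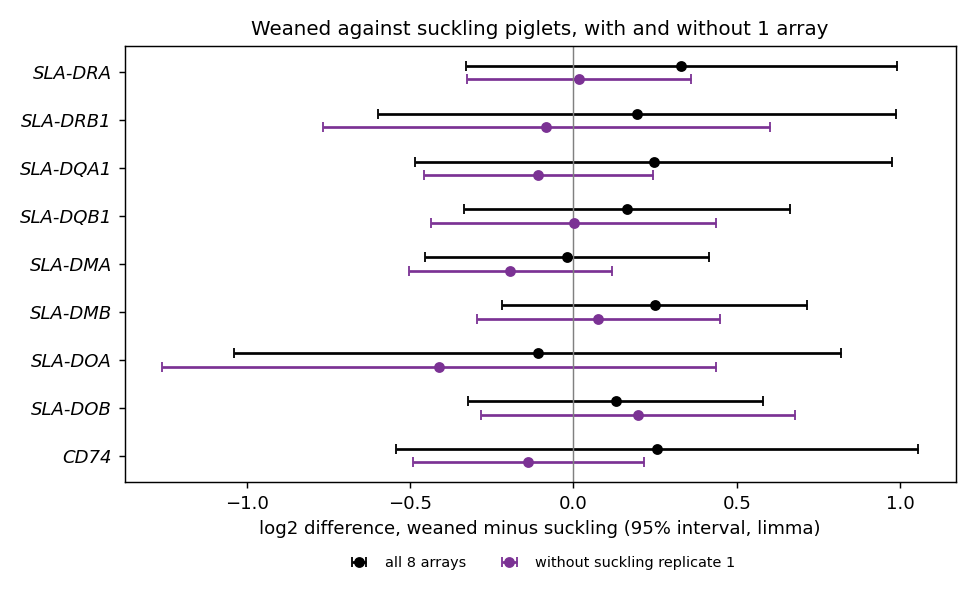
Log2 difference of each class II gene, weaned minus suckling, with its 95% interval from limma, for all 8 arrays (black) and without suckling replicate 1 (purple). All intervals include 0, and the estimates of SLA-DRB1, SLA-DQA1 and CD74 lie above 0 with all arrays and below 0 without that array.

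The 32 probes gave the same account as the 9 chosen ones. With all 8 arrays 29 had a higher mean in weaned piglets and 3 a lower one, with differences from -0.11 to 0.46 and limma adjusted p-values from 0.548 to 0.989. Without suckling replicate 1, 14 were higher and 18 lower, from -0.41 to 0.40, and none passed the threshold in either fit. The 7 probes of SLA-DRA ranged from 0.05 to 0.40 with all arrays and from -0.33 to 0.07 without that array. The 7 probes of SLA-DQA1 ranged from 0.18 to 0.45 and from -0.21 to 0.12 in the same fits. Both SLA-DMA probes, both SLA-DOA probes and both CD74 probes were lower in weaned piglets without suckling replicate 1, and all 4 SLA-DQB1 probes, both SLA-DMB probes and both SLA-DOB probes were higher. No probe had groups that did not overlap. Probes of a gene share its RNA and are not independent.

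**Figure D3:**
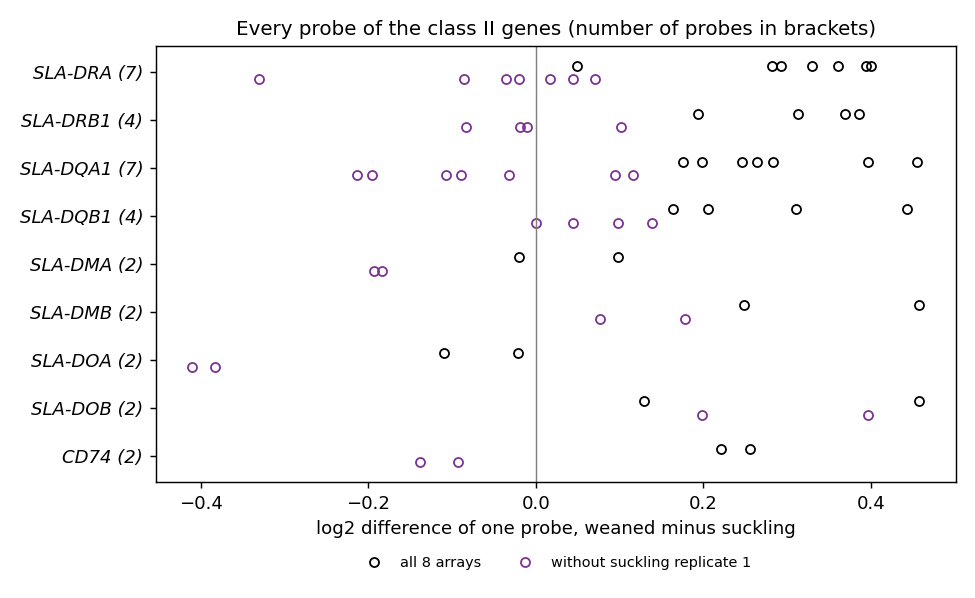
Log2 difference, weaned minus suckling, of every probe of the 9 genes (1 circle per probe, number of probes in brackets), with all 8 arrays (black) and without suckling replicate 1 (purple). With all arrays 29 of 32 circles lie above 0, and without suckling replicate 1 the circles fall on both sides, 14 above and 18 below.

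The spread between piglets differed in size between the groups. The SD was smaller in weaned than in suckling piglets for all 9 genes, from 0.03 to 0.38 in weaned and from 0.32 to 0.89 in suckling piglets. Among all tested probes, 68.1% had the larger SD in the suckling group. When suckling replicate 1 was left out, the suckling SD was the larger for 6 of 9 genes, against 50.6% of all probes. The weaned SD of CD74 was 0.17, against a suckling SD of 0.80 with that array and 0.15 without it. SLA-DRB1 and SLA-DOA had weaned SDs of 0.32 and 0.38, against suckling SDs of 0.60 and 0.80 without the array.

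Suckling replicate 1 was the lowest of the 8 arrays for 8 of the 9 genes and for 30 of the 32 probes, whereas it was lowest for 19.0% of all tested probes with a value on every array. The array was singled out after its values were seen, so these counts are a description. It lay below the mean of the other suckling arrays by amounts that differed from gene to gene. The log2 distance from that mean was -1.58 for CD74, -1.42 for SLA-DQA1, -1.25 for SLA-DRA, -1.20 for SLA-DOA and -1.11 for SLA-DRB1. It was -0.69 for SLA-DMA, -0.69 for SLA-DMB and -0.66 for SLA-DQB1, and 0.28 for SLA-DOB, while the median over all tested probes was 0.06. For CD74, 3.31% of all tested probes lay further down in suckling replicate 1, and for SLA-DQB1 14.8% did. The median over the 9 genes was -1.11, and it was between -0.89 and -1.16 under median scaling, quantile normalisation, the deposited log2 table and normexp background correction, where the array was again lowest for 8 of 9 genes.

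The genes next to the class II genes lay near the other suckling arrays on this array. TAP2, PSMB8, TAP1, PSMB9 and BRD2 lie between SLA-DOB and SLA-DMB in the RefSeq order, and they were named after their values were seen. TAP1 and TAP2 form the peptide transporter of the class I pathway, PSMB8 and PSMB9 are subunits of the immunoproteasome, and BRD2 is a chromatin reader. Suckling replicate 1 lay between -0.13 and 0.14 from the mean of the other suckling arrays for these 5 genes, and counted from the lowest of the 8 arrays it ranked 2 for TAP2, PSMB8 and TAP1, 3 for PSMB9 and 6 for BRD2. Their weaned minus suckling differences were 0.28 for TAP2, 0.66 for PSMB8, 0.41 for TAP1, 0.37 for PSMB9 and -0.05 for BRD2, with limma adjusted p-values from 0.295 to 0.919. With suckling replicate 1 left out they were 0.24 for TAP2, 0.68 for PSMB8, 0.38 for TAP1, 0.40 for PSMB9 and -0.01 for BRD2, with limma adjusted p-values from 0.152 to 0.968.

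Across the 8 arrays the class II genes other than SLA-DOB moved together, and this rested largely on suckling replicate 1. The 28 pairs among these 8 genes had Pearson correlations from 0.28 to 0.97 with a median of 0.76, given as a description over 8 arrays with no test. Over the 7 other arrays the median was 0.23, with 19 of the 28 above 0 and a range from -0.65 to 0.97. SLA-DRA and SLA-DQB1 had an r of 0.89 over 8 arrays and 0.97 over 7. SLA-DRB1 and SLA-DQA1 had 0.84 in both, and SLA-DMA and SLA-DOA had 0.81 and 0.79. SLA-DQA1 with CD74 had the highest r over 8 arrays, 0.97, and 0.66 over 7. SLA-DRA with CD74 had 0.93 over 8 arrays and -0.01 over 7. SLA-DOB had an r below 0 with 7 of the other 8 genes over 8 arrays.

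The genes with a symbol whose pattern over the 8 arrays was most like the median class II profile were, out of 2764 compared, PAFAH1B1, HADHA, BID, EXTL2, ARPC1B, SDC4, CLDN4, SOD1, HYAL1 and CYBA. Their Pearson correlations lay between 0.93 and 0.98 over 8 arrays, and all 10 had their lowest value in suckling replicate 1. The profile itself was lowest on that array, at -0.85, so choosing genes by their likeness to it favoured this. Without that array the correlations ranged from -0.02 for SDC4 to 0.82 for HADHA. HADHA, a mitochondrial enzyme of fatty acid oxidation, had 2.64, 2.31, 2.72 and 2.51 in weaned replicates 1 to 4, against 1.20, 2.81, 2.29 and 2.77 in suckling replicates 1 to 4. CLDN4, a tight junction protein, had 1.68 to 2.13 in weaned arrays, against 0.00 in suckling replicate 1 and 2.16 to 2.25 in the other suckling arrays. None of the 10 passed the threshold between the groups (limma adjusted p = 0.692 to 0.977). They were chosen for a profile with its largest departure on 1 array, so this result also depends on the choice.

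Gene lists of the steps around class II presentation were set beside the 9 genes by their counts. Of all tested genes with a symbol, 57.5% had a higher mean in weaned piglets, and 54.7% without suckling replicate 1. Of 88 different genes in 12 lists none passed the limma threshold, with or without suckling replicate 1. Among the genes given with values below, IFI30, PSMB8, FCER1G, LYZ, CD4 and CDH5 had groups that did not overlap with 8 arrays. Without suckling replicate 1 the same held for NFYB, CD79A, KDR, APOC3 and APOA4 as well. Over all tested probes the share was 7.76% with 8 arrays and 20.5% without that array. Most genes given with values below were named for a small p in their list, which favours groups that do not overlap, so their count cannot be set against that share. In the same lists, IRF1, CD9, PSME2 and AIF1 also had groups that did not overlap with 8 arrays. For regulators of CIITA and of class II promoters, 11 genes were measured, of which 7 had a higher and 4 a lower mean in weaned piglets (median 0.15). SPI1, a transcription factor of myeloid and B cells, had -3.49 ± 0.47 in weaned and -4.21 ± 0.20 in suckling piglets (SD, n = 4 each; limma adjusted p = 0.297, and 0.191 without suckling replicate 1). NFYB, a subunit of the factor that binds the Y box of class II promoters, had 0.95 ± 0.27 in weaned and 1.60 ± 0.44 in suckling piglets (limma adjusted p = 0.344, and 0.0517 without suckling replicate 1). IFNG, the cytokine that induces CIITA, had -3.57, -3.23, -4.17 and -2.65 in weaned replicates 1 to 4, against -3.19, -4.14, -3.88 and -3.36 in suckling replicates 1 to 4 (limma adjusted p = 0.812, and 0.554 without suckling replicate 1), and was singled out for its role. SPI1 and IFNG lay far down the array's range, near or below the level of SLA-DOB. The list had, without suckling replicate 1, 5 higher, 6 lower and a median of -0.03.

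The list of endosomal proteins held proteins that break down or unfold antigen (IFI30 and the cathepsins CTSB, CTSD, CTSH, CTSV and CTSZ) and membrane proteins of lysosomes and endosomes (LAMP1, LAMP2 and the tetraspanins CD9 and CD82). In it, 6 of 10 genes had a higher and 4 a lower mean in weaned piglets (median 0.05, and -0.20 without suckling replicate 1, with 4 higher and 6 lower). IFI30, a thiol reductase that unfolds antigens, had 4.21, 3.76, 3.80 and 3.75 in weaned replicates 1 to 4, against 2.69, 3.01, 3.54 and 3.21 in suckling replicates 1 to 4. Every weaned value was above every suckling value, but the difference of 0.77 (SE 0.21) did not pass the threshold (limma adjusted p = 0.218, and 0.109 without suckling replicate 1). CTSH, a lysosomal aminopeptidase, had 3.56 ± 0.33 in weaned and 2.42 ± 0.64 in suckling piglets (SD, n = 4 each; limma adjusted p = 0.232, and 0.130 without suckling replicate 1). Suckling replicate 1 was the lowest array for 7 of these 10 genes, and its median distance from the other suckling arrays was -0.73.

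The class I pathway, which presents peptides from inside the cell to CD8+ T cells, had 12 of 14 genes with a higher and 2 with a lower mean in weaned piglets (median 0.24; without suckling replicate 1, 10 higher, 4 lower and a median of 0.18). PSMB8 had 3.88 ± 0.27 in weaned and 3.22 ± 0.36 in suckling piglets (limma adjusted p = 0.295, and 0.152 without suckling replicate 1), and PSMB9 had 6.71 ± 0.21 in weaned and 6.34 ± 0.24 in suckling piglets (SD, n = 4 each; limma adjusted p = 0.440, and 0.251 without suckling replicate 1). Suckling replicate 1 was the lowest array for 3 of the 14 class I genes, with a median distance of -0.13 from the other suckling arrays.

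Cell types that carry class II molecules were followed by their markers. Of 13 B cell markers 3 were measured, all higher in weaned piglets (median 0.14, and 0.31 without suckling replicate 1). CD79A, a chain of the B cell receptor, had -1.88 ± 0.46 in weaned and -2.22 ± 0.50 in suckling piglets (SD, n = 4 each; limma adjusted p = 0.682). The CD79A difference without suckling replicate 1 was 0.57, against 0.35 with it, and the groups did not overlap (limma adjusted p = 0.243). Of 15 dendritic cell markers 6 were measured, all with a higher mean in weaned piglets (median 0.36; 5 higher and 1 lower without suckling replicate 1, median 0.26). CD209, a C-type lectin, differed by 0.63 (SE 0.32, limma adjusted p = 0.471, and 0.186 without suckling replicate 1), and CD86, a costimulatory molecule, by 0.50 (SE 0.33, limma adjusted p = 0.577, and 0.559 without it). XCR1, the 1 marker that was lower without that array, differed by 0.22 with it and by -0.09 without it. Which cells the RNA of these 6 markers came from was not tested. Of 15 macrophage markers 10 were measured, with 9 higher and 1 lower (median 0.33, and 0.23 with all 10 higher without suckling replicate 1). FCER1G, an Fc receptor chain, differed by 0.78 (SE 0.24, limma adjusted p = 0.265, and 0.156 without suckling replicate 1), and LYZ, which encodes lysozyme, by 1.78 (SE 0.60, limma adjusted p = 0.297, and 0.0908 without it). LYZ had the highest mean of the 10 in both groups, 7.93 in weaned and 6.15 in suckling piglets. Whether its RNA came from macrophages or from other cells of the segment was not tested.

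Markers of other cells on suckling replicate 1 are given beside its low class II values. Of 14 enterocyte markers 8 were measured, and this array was the lowest for 6 of them, with a median distance of -1.93 from the other suckling arrays. The summed level of the 8, in multiples of the 75th percentile, was 886 to 1667 in the weaned arrays, against 634 on suckling replicate 1 and 2118 to 3250 in the other suckling arrays. None of the 3 B cell or 12 T cell genes was lowest on this array, and their median distances were 0.68 and 0.65 above the other suckling arrays. The summed B cell level was 0.302 to 0.531 in weaned arrays, against 0.455 on suckling replicate 1 and as low as 0.219 in the other suckling arrays. Dendritic cell and macrophage markers had median distances of -0.17 and -0.06, with this array lowest for 1 of 6 and 5 of 10 genes. The T cell, dendritic cell and macrophage medians covered genes that went opposite ways. The T cell distances ran from -0.46 for CD3E and -0.39 for CD3D to 1.87 for CTLA4. The dendritic cell distances ran from -1.25 for XCR1 to 0.93 for CCR7, and the macrophage distances from -1.16 for C1QB to 1.99 for CD163. The part of any of these cell types in the class II values was not tested.

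**Figure D4:**
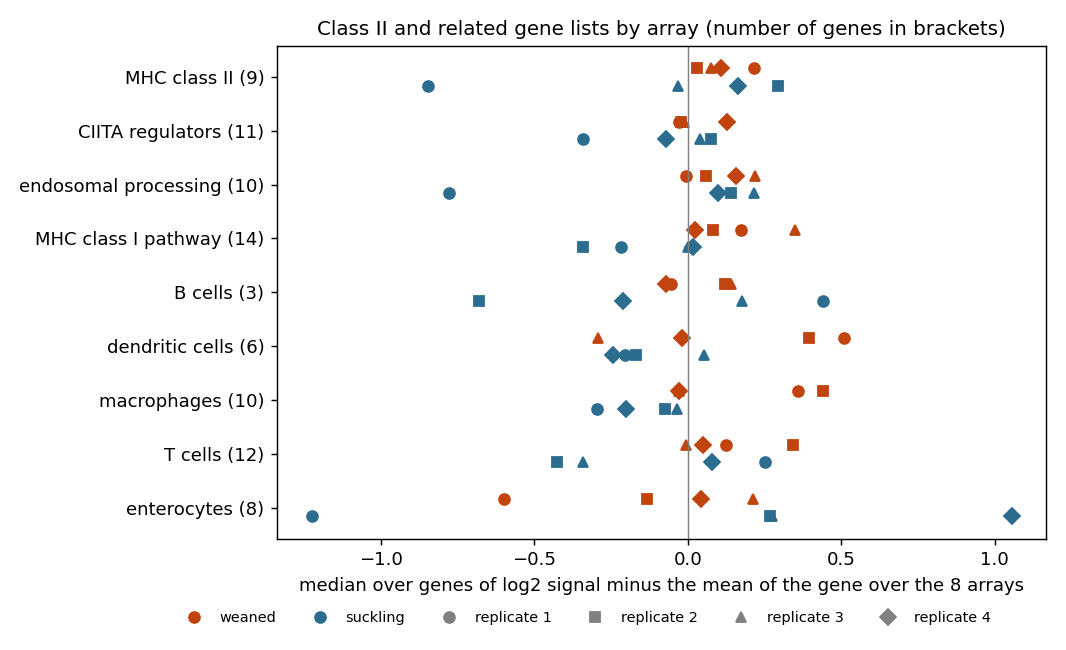
Median over the genes of each list of the log2 signal minus the gene's mean over the 8 arrays, by array, with weaned arrays (orange) drawn above suckling arrays (blue) in each row; marker shape gives the replicate number and brackets the number of genes. On suckling replicate 1 (blue circle) the class II median is -0.85, the endosomal median -0.78 and the enterocyte median -1.22, whereas the B cell and T cell medians are 0.44 and 0.25.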

How the data were processed

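RNA labelled with the dye Cy3 was hybridised to 1-colour arrays read with Agilent Feature Extraction 10.7, as stated in the submitters' processing notes. Per the file headers, each spot has a processed intensity with background subtracted, median intensities of spot and local background, and flags. A deposited series table gives log2 values whose columns share 1 distribution; how they were made and centred is not given in the sources used here.

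Control spots were dropped, spots flagged as outliers were treated as missing, and replicate spots were averaged, which left 43603 probes. Tested probes (30554) were well above background on 4 or more arrays, with at least 3 values in each group. Symbols for 6924 probes came from RefSeq accessions (Sscrofa11.1 gene table, read for names and gene order alone). After log2 transformation and subtraction of the 75th percentile, limma 3.58.1 (R 4.3.3) compared weaned with suckling piglets, with Benjamini-Hochberg adjustment over all tested probes. The number of arrays limits the precision.

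The genes, lists and tests were chosen with earlier results of these data known. The pair of genes with the smallest p in each list was named, as were the 10 genes most like the median class II profile by Pearson r; 1 gene that this rule names is not reported here. FABP1 and IFNG were added for their roles. Alternatives were other scalings, a background correction, filters, flagged spots kept, other spread estimates, array weights, a block for replicate number, the mean of a gene's probes, and leaving out each array. The script for the fits was tested on simulated data.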

Additional observations from a re-analysis of the deposited data

Results flagged for a closer look

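In 24 groups of 4 values (the 9 genes, their median profile, the 75th percentile and the share of probes well above background, each in both groups), 3 had 1 array far from the other 3, where about 1 in 20 is flagged by chance; each ratio divides the distance to the closest array by the whole range of the group. For SLA-DMA, weaned replicate 3 was far above the other weaned arrays (0.943), although the weaned range of this gene was narrow. For CD74, suckling replicate 1 was far below the other suckling arrays (0.837); with SLA-DRA the ratio on the same array was 0.807, which stayed under the limit for a group of 4. The 75th percentile of the intensity was far lower on weaned replicate 1 than on the other weaned arrays (0.918), at 317 against 384 to 390, and the scaling removes this factor from every value.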

How the results depend on the processing

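Under 11 alternatives to the processing and the 8 fits without 1 array each, no class II gene passed the limma threshold in any of 171 values (smallest adjusted p = 0.421), and 161 kept their direction. Of these, 36 did so by construction: in 4 alternatives (no filter, all 8 arrays above background, intensity trend, replicate block) the differences equal the reported ones and just the p-values can move. Median scaling shifted the differences of all 9 genes by the same amount, and so did keeping flagged spots. These alternatives therefore give no separate check of each gene. SLA-DOB turned to -0.016 under normexp background correction and SLA-DMA to 0.039 with the mean over its probes. With 1 array left out at a time, SLA-DRB1 ranged from -0.083 to 0.49, SLA-DQA1 from -0.11 to 0.43, CD74 from -0.14 to 0.42, SLA-DMA from -0.19 to 0.078 and SLA-DOA from -0.41 to 0.30; the number of genes higher in weaned piglets ranged from 4 (without suckling replicate 1) to 9, their median difference from -0.08 to 0.30, and the number of probes past the threshold from 9 to 553. That number was 328 with array weights against 54 in the reported fit, and the cause was not tested. No label ties replicate numbers to litters, so whether same-numbered piglets are littermates is not known. The replicate number was also the array's position on its slide, so comparisons by number cannot tell litter from position. Deviations from the group means correlated at 0.37, 0.01, 0.19 and -0.02 for numbers 1 to 4, and not every array was most like its own number. With the replicate number as a block, 0 of 30554 probes passed by limma (4195 at an unadjusted p under 0.05), and no class II gene did. The promoter motif alternative was not run. Among the class II genes, signal over background was smallest for SLA-DOB.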

Other observations

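Markers of further cell types of the jejunal wall gave these counts. Of 12 T cell genes measured, 8 had a higher and 4 a lower mean in weaned piglets (median 0.27, and 0.33 without suckling replicate 1). CD4, the coreceptor that binds class II molecules, had -2.62 ± 0.27 in weaned and -2.97 ± 0.12 in suckling piglets, with no overlap between the groups (SD, n = 4 each; limma adjusted p = 0.454, and 0.270 without suckling replicate 1), and CD8A had -0.45 ± 0.52 in weaned and -1.14 ± 0.60 in suckling piglets (limma adjusted p = 0.458, and 0.148 without it). Of 6 genes in the plasma cell list 2 were measured, PRDM1 and XBP1. Both had a lower mean in weaned piglets, by -0.28 and -0.10 (limma adjusted p = 0.618 and 0.818), and by -0.14 and -0.08 without suckling replicate 1 (0.696 and 0.818). PRDM1 was also in the list of CIITA regulators. Whether the RNA of these 2 genes came from plasma cells was not tested, so they give no measure of plasma cell number. Among 8 enterocyte markers 2 were higher and 6 lower (median -0.19), and all 8 were lower without suckling replicate 1 (median -0.67). APOC3, an apolipoprotein, had 5.55 ± 1.59 in weaned and 8.03 ± 2.48 in suckling piglets (limma adjusted p = 0.449, and 0.0533 without suckling replicate 1), and APOA4, another apolipoprotein, had 8.16 ± 0.63 in weaned and 8.72 ± 1.01 in suckling piglets (limma adjusted p = 0.690). The APOA4 difference was -0.56, and -1.05 without suckling replicate 1, where the groups did not overlap (limma adjusted p = 0.117). Of all tested probes, 7.76% had groups that did not overlap with 8 arrays and 20.5% without suckling replicate 1.

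All 4 fibroblast genes measured had a lower mean in weaned piglets (median -0.32, and -0.41 without suckling replicate 1), among them COL1A2, a collagen chain, at 3.90 ± 0.44 in weaned and 4.47 ± 0.33 in suckling piglets, and LUM, a matrix proteoglycan, at 1.65 ± 0.45 in weaned and 2.16 ± 0.19 in suckling piglets (SD, n = 4 each; limma adjusted p = 0.410 and 0.421, and 0.152 and 0.219 without that array). Of 5 endothelial genes 4 were lower (median -0.34, and -0.35 without it), with CDH5, a vessel wall cadherin, at 0.57 ± 0.14 in weaned and 0.97 ± 0.17 in suckling piglets and KDR, a growth factor receptor, at -0.31 ± 0.08 in weaned and 0.05 ± 0.24 in suckling piglets (limma adjusted p = 0.346 and 0.401, and 0.223 and 0.124 without that array). Of 4 smooth muscle genes 3 were higher and 1 lower (median 0.09), and ACTA2 and MYLK differed by 0.29 and 0.17 (limma adjusted p = 0.797 and 0.821). With suckling replicate 1 left out, 2 smooth muscle genes were higher and 2 lower (median 0.0030), and ACTA2 and MYLK differed by 0.11 and 0.16 (limma adjusted p = 0.903 and 0.779).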
